A study of Homo sapiens with 28 samples.

Results

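TimeLapse chemistry, in which sodium periodate (NaIO4) and trifluoroethylamine (TFEA) at pH 5.2 recode 4-thiouridine (s4U), was compared between a drop-out and an improved handling of the RNA. Libraries were chosen by the chemistry and handling in their labels, which gave 6 of the 28 samples of the series. All 6 were total RNA from wild-type HEK 293T cells, a transformed human embryonic kidney line. Under each handling, 2 libraries came from cells given 100 µM s4U for 2 h and 1 library from cells given none. The labels name the handlings as drop out conditions and improved handling conditions and do not say in which steps they differ. Iodoacetamide and OsO4 with NH3, with 6 samples each, served to set turnover classes and to test differences between chemistries, and 10 samples of other chemistries were not analysed here.

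In nucleotide-recoding RNA-seq, cells build s4U into RNA made during the labelling time, and the chemistry makes that base read as C where the genome has T. A transcript that is made and destroyed quickly is mostly new after a short labelling time, so many of its reads carry T-to-C mismatches, and a stable transcript carries few. The rate constant of decay is estimated from that new share.

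The 4 labelled libraries held 2413799 to 4707058 reads, and the unlabelled ones held 3064410 under drop-out and 9962345 under improved handling. Reads given to no single gene made up 32.7% to 36.1% of the drop-out libraries and 17.5% to 18.4% of the improved ones. Of reads marked intronic within genes, 59.2% to 67.8% lay, under drop-out, on chromosome 21 or on unplaced contigs (both with ribosomal DNA), against 6.35% to 8.64% under improved handling, and the part of this in the conversion results was not tested. Without those contigs, 7807 of 12329 genes differed in counts, close to the full comparison given last. Nothing in the labels says that the duplicates came from separate cultures, so p-values measure only the spread between libraries. In the main edgeR fits that spread was estimated over the TimeLapse, iodoacetamide and OsO4 duplicates together. Between TimeLapse replicates, the chi-square of exonic counts per degree of freedom was 5.28 under drop-out and 2.26 under improved handling. As a check of the cell type, 4 of 8 HEK 293 markers had a rate constant in the authors' deposited table (VIM, NEFL, NEFM and KRT18). The others, PAX2, KRT8, LIN28B and ENO2, had none, nor did any of 8 blood, 7 liver and 7 fibroblast markers. A missing constant does not show that a gene was silent, so this check is weak.

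Conversion was compared first, as the percent of a gene's exonic reads that carried 1 or more T-to-C mismatches. The converted share was higher under improved handling across most genes. The median gene was at 12.1% and 8.79% in the drop-out libraries and at 22% and 20.4% in the improved ones. Without s4U it was at 2.33% under drop-out and 2.87% under improved handling, so the background was similar and far below every labelled library. Over the 2665 genes whose exonic reads numbered 50 or more in every labelled library, 1067 rose, which is 40%, and 0 fell (edgeR quasi-likelihood test, Benjamini-Hochberg adjusted p under 0.05). In 2013 genes both improved libraries lay above both drop-out libraries, in 15 below both, and in 637 the handlings overlapped. The median change in the odds of a converted read was 1.07 on the log2 scale. Across genes, the mean converted shares under the 2 handlings had a Spearman correlation of 0.762, as a description over genes that share libraries and depth.

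The call count depended on single libraries. It was 318 without drop-out replicate 2, 324 without improved replicate 1 and 656 without improved replicate 2, with median log2 odds ratios of 0.82, 0.98 and 1.13. Counted as mismatches per T position in all labelled libraries, 793 of 2665 genes rose around a median of 1.22.

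The identifiers of the counted genes could not be paired with symbols, so genes are given by identifier. The 2 given here had the largest log2 odds ratios among called genes with the handlings apart and a mean of at least 200 reads. Both reached that mean through the improved libraries, so their levels and p-values describe genes chosen for this difference. ENSG00000004455 on chromosome 1 had 9.33% and 4.88% converted exonic reads under drop-out and 37.1% and 34.8% under improved handling, against 4.58% and 3.24% without s4U. Drop-out replicate 2 was thus close to the unlabelled level for this gene while both improved libraries were far above it. The log2 odds ratio was 2.89 ± 0.49 (SE, n = 2 per handling, edgeR adjusted p = 1.95e-05). For ENSG00000132305 on chromosome 2, the values were 1.20% and 3.24% under drop-out, 19.3% and 10.1% under improved handling, and 3.11% and 1.16% without s4U. Under drop-out, on 166 and 185 reads, this gene was close to or below the level of the unlabelled library (log2 odds ratio 2.87 ± 0.64, edgeR adjusted p = 0.000592). That the handlings did not overlap was a condition of its choice. Under other settings its log2 odds ratio ran from 2.25, without improved replicate 1, to 4.88, with at least 2 mismatches required of a converted read.

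Reads marked intronic were tested in the same way over a smaller set of genes. Introns of messenger RNA precursors are short-lived, but under drop-out most reads with this mark lay on the contigs with ribosomal DNA, as given above. In the median gene the intronic share was 46.6% and 35.1% under drop-out and 74.7% and 69.4% under improved handling, against 1.69% and 2.16% without s4U. Of 171 genes with at least 50 intronic reads in each labelled library, 111 rose (64.9%) and 0 fell by the same edgeR test, and the median log2 odds ratio was 1.61. That count fell to 66 without drop-out replicate 2, and also to 66 without improved replicate 1. With at least 20 reads, 665 of 1095 genes rose around a median of 1.93, and with at least 200 reads 5 of 12 around 0.38. With STAR, 195 of 258 rose around a median of 1.93, and with HISAT2 36 of 91 around 1.04. Counted as mismatches per T position, 53 of 171 rose around a median of 0.91. The 171 genes include 8 on the mitochondrial contig, whose genes have no introns although some of their reads carry the intronic mark. Of these 8 genes 0 rose or fell, with a median log2 odds ratio of 0.18, and in the other 163 genes 111 rose, with a median of 1.67.

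The largest intronic rise was in ENSG00000087884 on chromosome 11, at 3.36% and 1.64% under drop-out and 52.8% and 50.7% under improved handling. It had 268 and 365 intronic reads under drop-out and 176 and 75 under improved handling, with 320 and 249 without s4U. All intronic gene reads of the labelled libraries numbered 431949 and 485652 under drop-out and 1672069 and 899332 under improved handling. This gene thus had fewer intronic reads under improved handling, and reached the mean required of named genes through the drop-out libraries. The part of fewer unconverted reads in its rise was not tested. Its drop-out libraries stood at the level of the unlabelled ones, 2.19% and 1.61%, and the log2 odds ratio was 5.43 ± 0.64 (SE, n = 2 per handling, edgeR adjusted p = 1.80e-14). Next came ENSG00000153707 on chromosome 9, among called genes with the handlings apart and a mean of at least 200 intronic reads. It had 285 and 92 intronic reads under drop-out and 396 and 226 under improved handling, so it reached that mean through the improved libraries. Its level and p-value thus describe a gene chosen for this difference. It was at 17.2% and 4.35% under drop-out and at 82.6% and 73.0% under improved handling, against 5.14% and 2.08% without s4U. The drop-out replicates differed from each other more than the improved ones did (log2 odds ratio 4.77 ± 0.57, edgeR adjusted p = 1.80e-14). In the 134 genes tested on both kinds of read, exonic and intronic log2 odds ratios had a Spearman correlation of 0.51, as a description across genes.

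Whether the change differed by how fast a transcript turns over was asked with classes built from other libraries. The 2236 genes with at least 50 exonic reads in all 12 libraries used were ranked by their background-subtracted converted share under improved handling in the iodoacetamide and OsO4 libraries, and divided into 5 classes of equal size, class 1 the slowest and class 5 the fastest. Because the ranking used improved-handling values, it is not independent of a handling change that the chemistries share. In class 1, the median converted share was 6.48% and 5.17% under drop-out and 10.7% and 9.78% under improved handling. In class 3 it was 11.7% and 8.82% under drop-out, and 21.6% and 19.9% under improved handling. In class 5 it was 29.2% and 20.3% under drop-out and 41.5% and 38.9% under improved handling. The 2 handlings did not overlap in any class, and the distance between drop-out replicates was widest in the fastest one.

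Ratios, odds ratios and calls by class are given as a description, with the T-to-C background of unlabelled RNA left in. The means of the library medians under improved handling were 1.75, 2.0, 2.03, 2.06 and 1.63 times those under drop-out from class 1 to class 5. The median log2 odds ratios were 0.76, 1.09, 1.16, 1.26 and 0.97. In class 1 the unlabelled medians were 2.81% and 2.85%, a large part of the 6.48% and 5.17% under drop-out. In class 5 they were 1.98% and 2.92%, beside 29.2% and 20.3% under drop-out. The part of this background in the lower values of class 1 was not tested. Ratios of the fitted new share, which takes the background into account, are given below. The rising genes were 123, 189, 223, 240 and 173 of 447 or 448 per class, that is 27.5%, 42.3%, 49.9%, 53.7% and 38.6% beside the 40% of all genes tested. Median reads per gene fell from 367.5 in class 1 to 167.6 in class 5, so the power to call a change was not equal. The difference between classes was not tested. Exonic reads also held more T positions under improved handling in every class, for example 37.0 and 37.2 per read in class 2, against 31.8 and 31.2 under drop-out. A read with more T positions has more places for a mismatch, and the part of this in the converted share was not tested.

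**Figure D1:**
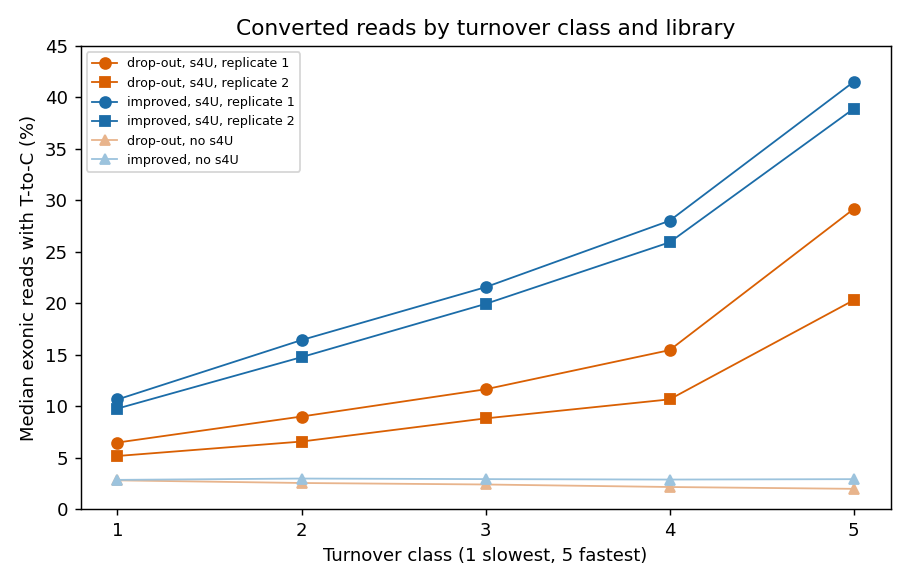
Median converted percent of exonic reads (y axis) in each turnover class (x axis), with 1 line per library. The improved labelled libraries lie above the drop-out ones in every class, from 10.7% and 9.78% in the slowest to 41.5% and 38.9% in the fastest, and both unlabelled libraries stay near the bottom of the axis.

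New reads also carried more mismatches. In a mixture of old and new reads fitted to each labelled library, a T in a new read was converted in 5.07% and 3.98% of cases under drop-out and in 6.47% and 5.29% under improved handling, against a background of 0.087% and 0.084% in the unlabelled libraries. Improved replicate 2 was close to drop-out replicate 1 in this measure. The fitted share of new reads was 16.0% and 11.1% under drop-out and 27.4% and 27.0% under improved handling, where the handlings stood apart. By class, the new share was 2.26, 2.32, 2.17, 2.13 and 1.49 times as high under improved handling. In class 5 it was 30.9% ± 6.65 under drop-out and 46.2% ± 0.74 under improved handling (SD, n = 2), and in the slowest 3.79% ± 1.0 and 8.57% ± 0.44.

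The handling effect on the exonic converted share was compared between TimeLapse chemistry and the mean of the 2 other chemistries, and no gene was called as different. The edgeR interaction test called 0 of 2665 genes, with 41 at an unadjusted p under 0.05, and DESeq2 called 0, with 24. For the 2 named exonic genes, the interaction was 1.23 (ENSG00000004455) and 1.36 (ENSG00000132305) on the log2 scale. In edgeR the unadjusted p was 0.041 and 0.084, with an adjusted p of 1.0 for each. With 2 libraries per group, the absence of calls does not show that the handling effect was the same in all chemistries.

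Genes on the mitochondrial contig, which are transcribed by their own polymerase inside the organelle, gave no call in either direction. Of its 30 genes, 14 passed the read minimum, and 0 of the 14 rose or fell, beside the 40% that rose among all genes tested. Their median log2 odds ratio was 0.27, from -0.22 to 0.53, with a lowest edgeR adjusted p of 0.194. The median of the 14 was 35.4% and 25.8% under drop-out and 33.7% and 31.5% under improved handling, against 3.69% and 3.57% without s4U. The handlings overlapped in every one of the 14 genes, with drop-out replicate 1 as high as the improved libraries in many of them. As an example, ENSG00000198804 was at 32.4% and 24.1% under drop-out and at 30.4% and 26.8% under improved handling (log2 odds ratio 0.03 ± 0.26, SE).

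**Figure D2:**
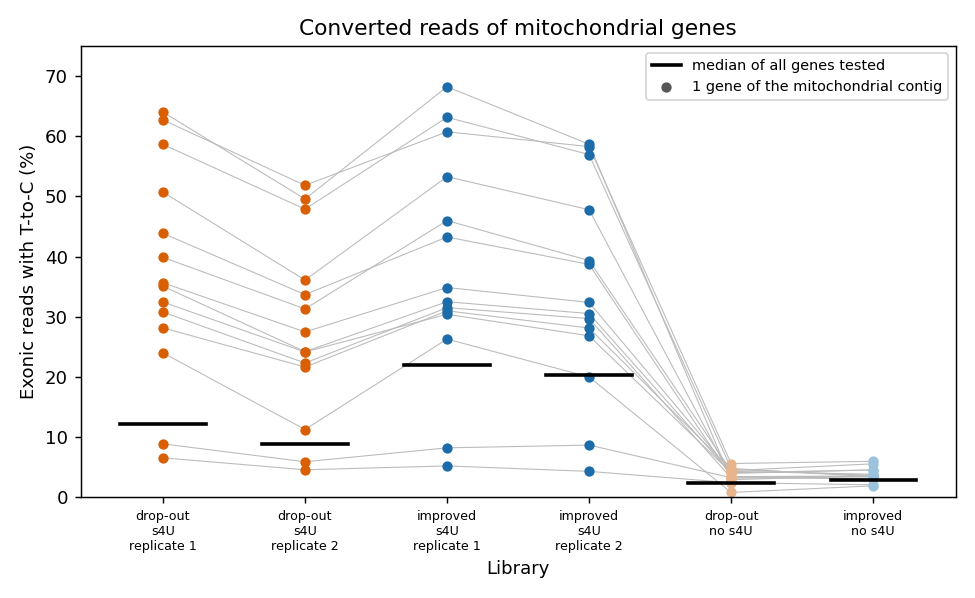
Converted percent of exonic reads (y axis) in each of the 6 libraries (x axis) for the 14 tested genes of the mitochondrial contig, 1 point per gene joined by grey lines, with a black bar at the median of all 2665 genes tested. The mitochondrial points overlap between handlings, at medians of 35.4% and 25.8% against 33.7% and 31.5%, while the black bars step up from 12.1% and 8.79% to 22% and 20.4%.

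The authors' deposited table gives first-order rate constants of decay for 2209 transcripts of this chemistry under both handlings, and it names them by symbol. The median constant in the authors' deposited table was 0.0430 under drop-out and 0.102 under improved handling, and the median log2 change was 1.18. By the adjusted p of the authors' deposited table, with a threshold of 0.05, 1162 constants were higher under improved handling (52.6%) and 15 were lower (0.679%). The time unit is not stated. Constants computed per hour from the fitted new shares of the count table had quartiles such that the deposited ones were 0.771 to 0.851 times as large, over different sets of genes. The order of transcripts was largely kept, with a Spearman correlation of 0.783 between handlings across transcripts, given as a description.

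**Figure D3:**
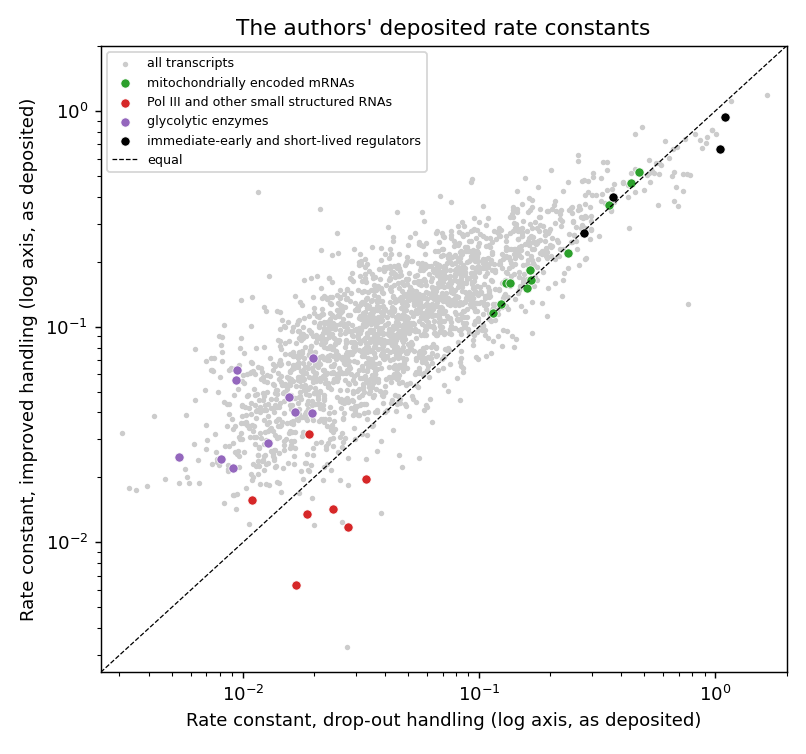
The authors' deposited rate constants under drop-out (x axis) and improved handling (y axis), both on log axes and in the unstated unit of the table, with 1 point per transcript for 2209 transcripts and the equality line dashed. Glycolytic enzymes lie above the line, mitochondrially encoded mRNAs along it, and 5 of the 7 small structured RNAs below it.

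Enzymes of energy metabolism, whose mRNAs are mostly stable, had constants that were higher under improved handling or did not pass. All 10 glycolytic enzymes with a value, of 17 listed, rose in the authors' deposited table, beside 52.6% of all transcripts, with a median log2 change of 1.64. In the authors' deposited table enolase ENO1 had the smallest of these changes, from 0.0195 to 0.0399 (log2 1.04, deposited adjusted p = 0.00044). The largest was in the phosphofructokinase PFKM, from 0.00945 to 0.0627 in the authors' deposited table (log2 2.96, adjusted p = 0.00915), and pyruvate kinase PKM went from 0.0156 to 0.0472 (log2 1.61, adjusted p = 1.32e-07). Among 18 nuclear genes of oxidative phosphorylation, 11 rose (61.1%, beside 52.6% of all transcripts), 0 fell and 7 did not pass in the authors' deposited table, with a median log2 change of 1.83. In the authors' deposited table they included the complex I subunit NDUFV1 (0.00626 to 0.0456, log2 2.97) and the complex III subunit UQCRQ (0.00887 to 0.0644, log2 2.98). Cytochrome oxidase subunit COX6C was at 0.0263 and 0.0124 in the authors' deposited table and did not pass (adjusted p = 0.385).

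Ribosomal protein mRNAs, the most abundant stable mRNAs of growing cells, were spread around the median of all transcripts. Of 69 with a value in the authors' deposited table, 41 rose (59.4%, beside 52.6%), 0 fell and 28 did not pass, and their median log2 change was 1.16. RPSA, of the small subunit, went from 0.0042 to 0.0385 in the authors' deposited table (log2 3.23, adjusted p = 5.14e-13), and RPLP0, of the large subunit's stalk, from 0.00591 to 0.0189 (log2 1.69). RPL32 was at 0.0277 and 0.0245 and RPL23 at 0.0599 and 0.0424 in the authors' deposited table, and neither passed. Many members have processed pseudogenes, so their reads can be split between copies.

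Cytoskeletal and chaperone mRNAs were called higher at 52.6% and 43.8%, at or somewhat below the 52.6% of all transcripts in the authors' deposited table. Of 19 actin, tubulin and filament genes in the authors' deposited table, 10 of them rose and 0 fell, with a median log2 change of 0.95. The myosin light chain MYL6 went from 0.00801 to 0.0586 in the authors' deposited table (log2 2.93), and the intermediate filament VIM from 0.0127 to 0.050 (log2 2.03), while the actins ACTB (log2 0.45) and ACTG1 (log2 0.50) did not pass. Of 16 chaperones in the authors' deposited table, 7 rose and 0 fell, with a median of 0.79, among them HSPA8, the constitutive HSP70 (0.0885 to 0.166, log2 0.92). HSP90AA1 was at 0.0332 and 0.0245 in the authors' deposited table and did not pass.

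Genes of the cell cycle, chromatin, protein breakdown and splicing had list medians near that of all transcripts. Of 24 cell cycle and mitosis genes in the authors' deposited table, 13 rose (54.2%, beside 52.6% of all transcripts) and 0 fell, with a median log2 change of 1.11. The replicative helicase subunit MCM5 went from 0.0398 to 0.217 in the authors' deposited table (log2 2.47, adjusted p = 2.65e-12) and the mitotic kinase PLK1 from 0.0746 to 0.207 (log2 1.47), while CDC25A stood at 0.298 and 0.310. Of 26 chromatin regulators 18 rose (69.2%) and 0 fell in the authors' deposited table, with a median of 1.24. Among these in the authors' deposited table were the maintenance DNA methyltransferase DNMT1 (0.0221 to 0.104, log2 2.27) and the nucleosome remodeller SMARCA4 (0.0182 to 0.0717, log2 1.99). The acetyltransferase EP300, with the high constants of 0.372 and 0.394 in the authors' deposited table, did not pass. Of 18 proteasome and ubiquitin genes 9 rose (50.0%) and 0 fell in the authors' deposited table, with a median of 1.25, led by the E1 enzyme UBA1 (0.00309 to 0.032, log2 3.44). The drop-out constant of UBA1 was the lowest of all 2209 transcripts in the authors' deposited table. Ratios over such small constants, here and in the other lists, are uncertain. Of 10 SR splicing factors and related genes 7 rose (70.0%) and 0 fell in the authors' deposited table, with a median of 1.14, such as SRSF1 (0.0426 to 0.116, log2 1.55).

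**Figure D4:**
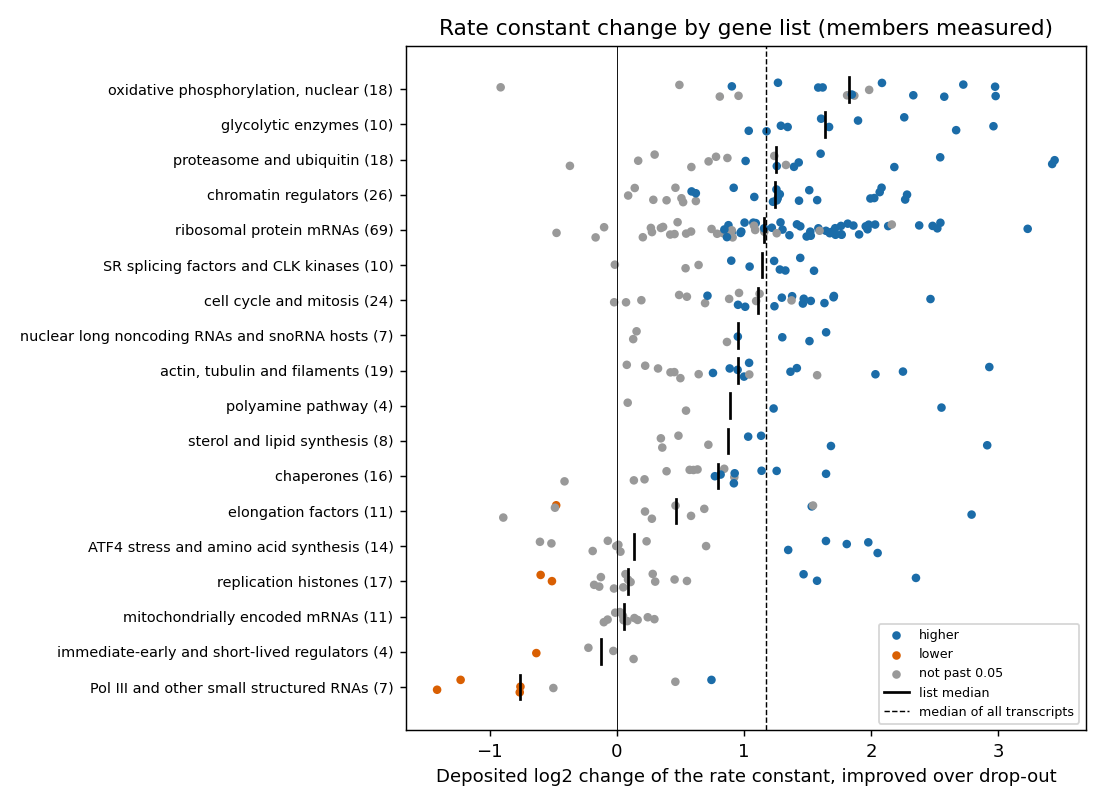
Deposited log2 change of the rate constant, improved over drop-out handling (x axis), for each measured member of the lists with at least 4 members (y axis, number measured in brackets), as blue points for higher, orange for lower and grey for not past an adjusted p of 0.05. List medians (black bars) run from -0.76 for small structured RNAs to 1.83 for nuclear oxidative phosphorylation genes, and the dashed line marks the median of all transcripts, 1.18.

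Mitochondrially encoded mRNAs again stood apart from that median in level. None of the 11 measured, of 13 listed, was past the threshold in the authors' deposited table (0 higher, 0 lower, beside 52.6% higher among all transcripts), and their median constant was 0.164 under both handlings. The log2 changes ran from -0.10 for MT-CYB, the cytochrome b of complex III (0.237 and 0.220), to 0.30 for MT-ATP8 of the ATP synthase (0.130 and 0.159), in the authors' deposited table. MT-ND1 and MT-ND2, of complex I, had the highest constants of this group in the authors' deposited table, at 0.476 and 0.523 and at 0.437 and 0.462. The 2 mitochondrial rRNAs did not pass either. For the 2 other chemistries in the authors' deposited table, the list median was -0.18 for iodoacetamide, with 0 higher and 2 lower, and -0.12 for OsO4, with 0 higher and 0 lower. These values come from other libraries, and the difference between chemistries was not tested.

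Small structured RNAs had a median below 0. Of 7 such RNAs in the authors' deposited table, 4 fell, 1 rose and 2 did not pass, beside 0.679% lower among all transcripts. The RNase P RNA RPPH1 (chr14:20343071-20343411 in RefSeq, GRCh38.p14), which trims precursor tRNAs, fell from 0.0168 to 0.00636 in the authors' deposited table (log2 -1.41, adjusted p = 3.13e-05). RMRP (chr9:35657750-35658019), the RNA of the related RNase MRP, fell from 0.0278 to 0.0118 in the authors' deposited table (log2 -1.23, adjusted p = 1.07e-06). The transcription elongation regulator 7SK (chr6:52995620-52995951) fell from 0.0331 to 0.0196 in the authors' deposited table (log2 -0.76, adjusted p = 0.01).

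The signal recognition particle RNA has near-identical gene copies, which reads cannot separate with certainty, and its copies moved in opposite directions. In the authors' deposited table RN7SL1 fell from 0.0242 to 0.0142 and RN7SL2 rose from 0.0191 to 0.0319 (log2 -0.76 and 0.74, adjusted p = 0.00063 and 0.00102). The pseudogene copy RN7SL5P fell from 0.0386 to 0.0136 in the authors' deposited table (log2 -1.58, adjusted p = 0.0211). The largest fall in the authors' deposited table was in SNORD3C, a copy of the U3 snoRNA that guides early ribosomal RNA cleavage, from 0.0276 to 0.00326 (log2 -3.14, adjusted p = 0.000127). U3 also has further copies, so this value is uncertain in the same way. Its improved-handling constant was also the lowest of all 2209 transcripts in the authors' deposited table.

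Few short-lived regulators were measured. Only 4 of 50 listed immediate-early and short-lived regulators had a value in the authors' deposited table, and of these 1 fell and 0 rose. The AP-1 subunit JUN (chr1:58780791-58784047) fell from 1.04 to 0.668 in the authors' deposited table (log2 -0.63, adjusted p = 0.00867). MYC was at 1.10 and 0.937, JUND at 0.277 and 0.271, and the histone demethylase KDM6B at 0.368 and 0.400 in the authors' deposited table, and none of the 3 passed. JUN had log2 values of -0.98 with iodoacetamide and -0.85 with OsO4 in the authors' deposited table. Among proteins of transcription with high constants, some fell and others, such as CBX6 and PPRC1 below, rose in the authors' deposited table. Those that fell in the authors' deposited table included the corepressor BCOR from 0.693 to 0.362 (log2 -0.93, adjusted p = 8.1e-06), the coregulator IRF2BP2 from 0.726 to 0.427 (log2 -0.75) and the zinc finger factor ZNF703 from 0.756 to 0.508 (log2 -0.57). The last was the 1 of 3 measured zinc finger factors, of 60 listed, to fall in the authors' deposited table, and 0 rose. Both lists are too small to set against the 0.679% lower and 52.6% higher of all transcripts.

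The stress and amino acid list held both kinds of transcript. Of 14 measured members 5 rose (35.7%, beside 52.6% of all transcripts) and 0 fell in the authors' deposited table, with a median log2 change of 0.13. The members that rose in the authors' deposited table were the transcription factor ATF4 itself (0.104 to 0.361, log2 1.81, adjusted p = 9.94e-17) and the enzymes ASNS, SHMT2, PHGDH and PCK2 (log2 2.05, 1.98, 1.64 and 1.35). The fast members DDIT4, an mTORC1 inhibitor (1.17 and 1.11), SESN2 (0.744 and 0.740), STC2 (0.733 and 0.508) and VEGFA (0.683 and 0.444) did not pass in the authors' deposited table.

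Histone transcripts gave calls in both directions. Of 17 in the list, 3 rose and 2 fell in the authors' deposited table (17.6% and 11.8%, beside 52.6% and 0.679% of all transcripts). The 3 that rose in the authors' deposited table were the replacement variants H2AFZ, H3F3B and H3F3A (log2 1.47, 1.57 and 2.35), whose mRNAs are polyadenylated, and not replication-dependent ones. Those that fell in the authors' deposited table were the replication-dependent HIST1H3B (0.138 to 0.0909, log2 -0.60) and HIST1H2AG (0.184 to 0.129, log2 -0.51). HIST2H2AA3, a further replication histone outside the list, fell from 0.767 to 0.127 in the authors' deposited table (log2 -2.58, adjusted p = 4.2e-08). Replication histone genes have near-identical copies, so these single values are uncertain.

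Translation factors and related mRNAs with a 5′ terminal oligopyrimidine tract gave 2 rises and 1 fall among 11 (18.2% and 9.09%, beside 52.6% and 0.679% of all transcripts in the authors' deposited table). In the authors' deposited table HNRNPA1 rose from 0.0155 to 0.105 (log2 2.79, adjusted p = 4.89e-18) and BTF3 from 0.0118 to 0.0321 (log2 1.53), while the translocation factor EEF2 fell from 0.0803 to 0.0575 (log2 -0.48, adjusted p = 0.0211). Of the remaining lists in the authors' deposited table, 4 of 8 sterol and lipid synthesis genes, 4 of 7 noncoding RNAs and snoRNA hosts, 2 of 4 polyamine genes and 0 of 3 p53 targets rose, beside 52.6% of all transcripts, and 0 fell in any of them. The sterol enzyme FDPS went from 0.0114 to 0.0794 (log2 2.91) and the snoRNA host SNHG1 from 0.0887 to 0.269 (log2 1.65) in the authors' deposited table. The nuclear MALAT1 was at 0.073 and 0.0787 in the authors' deposited table and did not pass.

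The 5 largest rises in the authors' deposited table were in RPL36A, RCCD1, UNC13B, OSGEP and BCAS3, with log2 values of 5.33, 4.39, 4.07, 4.04 and 3.90. RPL36A, a protein of the large ribosomal subunit that was not in the list of ribosomal protein mRNAs above (chrX:101391011-101396155), went from 0.0116 to 0.420 in the authors' deposited table (deposited adjusted p = 2.78e-11). Its log2 value with OsO4 in the authors' deposited table was 3.56. OSGEP, the enzyme of the tRNA-modifying KEOPS complex, went from 0.0129 to 0.172 in the authors' deposited table. The 5 largest falls in the authors' deposited table were in SNORD3C, HIST2H2AA3, RN7SL5P, RPPH1 and RMRP, and the remaining 10 constants that fell included GPX4, which reduces lipid peroxides (0.047 to 0.0223, log2 -1.10, adjusted p = 0.033).

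Deposited constants were also grouped by turnover in other libraries. For the 1471 transcripts in the rows of all 3 chemistries, 5 classes were made from the improved-handling constants of the 2 other chemistries in the authors' deposited table. Within the authors' deposited table, the median log2 change of this chemistry was 1.11, 1.25, 1.29, 1.20 and 0.90 from class 1 to class 5. Constants higher under improved handling were 44.2%, 54.8%, 63.6%, 69.0% and 55.9% of each class in the authors' deposited table, and lower ones 8, 0, 1, 1 and 4 transcripts. At the ends the medians in the authors' deposited table were nearer to 0 (beside 52.6% higher and 0.679% lower among all transcripts): the 20 fastest transcripts had 5 higher and 2 lower with a median of -0.0032, and the 20 slowest had 6 higher and 6 lower with a median of 0.33. These counts are a description and no test, since a transcript whose constant was also lower under improved handling with the other chemistries was placed nearer the slow end by that fall, and one whose constant was higher nearer the fast end. The 6 slow ones that were lower in the authors' deposited table were SNORD3C, RPPH1, RMRP, RN7SL5P, RN7SL1 and 7SK, all described above, and the 6 that were higher were the mRNAs of FLNA, CKB, RPL8, RPS21, RPLP0 and RPLP1. The fast ones that rose in the authors' deposited table were EIF4A2, a translation initiation helicase (0.093 to 0.484, log2 2.43), MAT2A, which makes S-adenosylmethionine (log2 1.43), CBX6 (log2 1.17), TICRR (log2 0.79) and PPRC1 (log2 0.78).

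Gene counts asked which transcripts were recovered more or less under improved handling. Of 12449 genes tested on exonic reads, 7858 differed (63.1%), with 4500 higher (36.1%) and 3358 lower (27%) by edgeR's quasi-likelihood test at an adjusted p under 0.05. The median of all genes was 0.42 on the log2 scale after TMM normalisation. Scaled by library totals alone, 7965 genes differed, 5671 higher and 2294 lower, around a median of 0.93, so the share of higher genes among those called moved from 57.3% to 71.2%. Without drop-out replicate 2, 5859 genes differed and the larger number were lower, with 2822 higher (48.2%) and 3037 lower around a median of 0.23. In 7844 of the 7858 called genes the 2 handlings did not overlap, as they did not in 83.7% of all genes tested. Bulk libraries cannot tell fewer cells of a kind from less RNA per cell.

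Most called changes had the same direction without s4U. Of the 7858 called genes, 7770 (98.9%) had the same sign between the 2 unlabelled libraries, compared with 78.3% of the genes not called. The log2 changes of labelled and unlabelled libraries, which share no library, had a Spearman correlation of 0.895 across 12449 genes, given as a description. The handling effect in labelled libraries was then set against that in unlabelled ones, and no gene was called as different. That edgeR interaction test called 0 of 12449 genes, with 404 at an unadjusted p under 0.05, and DESeq2 called 0, with 154. The unlabelled groups have 1 library each and were assumed to vary like the others. The absence of calls therefore does not show that the effect was the same with and without s4U.

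**Figure D5:**
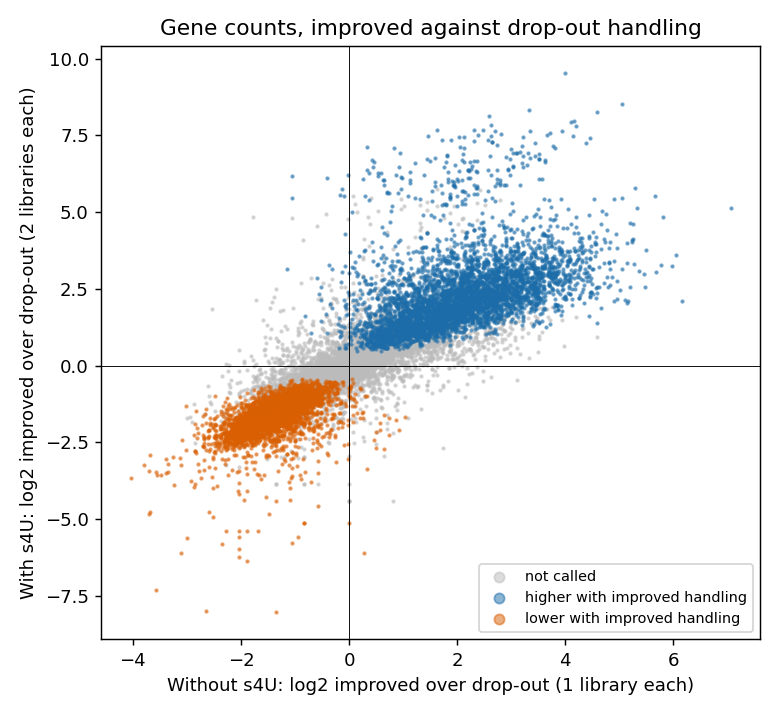
Log2 change in exonic gene counts, improved over drop-out handling, without s4U (x axis, 1 library per handling) and with s4U (y axis, 2 libraries per handling), 1 point per gene for 12449 genes, coloured by the call in the labelled libraries. Blue and orange points lie mostly in the upper right and lower left, since 98.9% of called genes have the same sign in both; points far up are genes with few or no reads under drop-out.

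The 2 rises and 2 falls in counts given here were chosen as the largest called changes with the labelled handlings apart and a mean of at least 200 reads. The rises reached that mean only through the improved libraries and the falls only through the drop-out ones, so their levels and p-values describe genes chosen for this difference. ENSG00000127914 on chromosome 7 was at 16.2 and 13.9 CPM (counts scaled to an equal library size after TMM) in the labelled drop-out libraries and 13.1 in the unlabelled one. Under improved handling it was at 327.3 and 286.3 with s4U and 321.1 without, and the log2 change was 4.35 ± 0.30 (SE, n = 2 per handling, edgeR adjusted p = 1.67e-09). ENSG00000114857 on chromosome 3 was at 28.3 and 9.59 CPM under drop-out and at 365.0 and 376.5 under improved handling, with 10.8 and 362.3 without s4U (log2 4.27 ± 0.36, edgeR adjusted p = 9.96e-09). Drop-out replicate 1 was above the other drop-out libraries for the latter gene.

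Of the falls, ENSG00000200488 on chromosome 2 was at 521.0 and 1871 CPM in the labelled drop-out libraries and at 78.1 and 70.7 in the improved ones, with 371.0 and 63.8 without s4U (log2 -4.0 ± 0.50, edgeR adjusted p = 1.08e-06). ENSG00000264940 on chromosome 17 was at 625.0 and 731.0 CPM under drop-out and at 27.1 and 84.6 under improved handling, with 444.5 and 65.9 without s4U (log2 -3.66 ± 0.36, edgeR adjusted p = 6.86e-08). The size of both falls depended on the aligner. With STAR and HISAT2 the log2 change was -2.13 and -2.68 for ENSG00000264940, and -3.92 and -2.79 for ENSG00000200488. The unlabelled libraries, which did not enter the labelled contrast, lay on the same sides for all 4 genes.

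After TMM normalisation, median count changes were nearest to 0 for fast transcripts. From class 1 to class 5, the median log2 count change with s4U was -1.45, -1.20, -0.98, -0.67 and -0.34, and without s4U it was -1.39, -1.09, -0.92, -0.65 and -0.33. These medians lie below the 0.42 of all genes. The zero point depends on the scaling: with library totals alone the median of all genes was 0.93. Class medians were not computed with that scaling, so which class is nearest to 0 holds for TMM only. A gene had to reach 50 reads in the drop-out libraries to enter a class, and the part of that minimum was not tested. The intronic percent of each class's gene reads was also higher under improved handling. In class 5 it was 12.1% and 10.2% with s4U and 11.1% without under drop-out, and 37.7% and 35.9% with s4U and 35.8% without under improved handling. On the mitochondrial contig 17 of 20 tested genes were lower and 0 higher under improved handling (edgeR), beside 27% lower among all genes. Their median was -1.10 with s4U and -1.50 without. In the turnover classes, whose genes also had to reach 50 reads, 325, 287, 283, 237 and 181 of 447 or 448 genes were lower from class 1 to class 5. Many falls in counts were thus not particular to this contig.

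The relative level of fast transcripts on labelling was measured as a turnover gap: the median log2 ratio of a labelled to its unlabelled library in class 5 minus that in class 1. The gap was -0.08 and -0.34 under drop-out and -0.25 and -0.26 under improved handling. The means were -0.21 ± 0.18 and -0.26 ± 0.010 (SD, n = 2), and the improved values lay between the drop-out ones. The difference of -0.047 had a two-sided exact permutation p of 1.0, where 2 against 2 libraries cannot give a p below 0.333. Without drop-out replicate 1 the difference changed sign, to 0.081.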

How the data were processed

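The labels' protocols describe Trizol extraction, DNase treatment, conversion and stranded total-RNA libraries. The authors deposited read counts per library, aligner, gene, intronic flag and T-to-C mismatches, with the number of T positions as another whole-number value. The submitters' processing notes list GRCh38, cutadapt, HISAT2, STAR, HISAT, Picard, HTSeq and DESeq2, with no versions. The authors also deposited decay rate constants (another value, with no time unit), their log2 change and an adjusted p-value, per the labels. The deposited log2 value is improved over drop-out, and differs from the ratio of the constants by at most 0.352 on that scale.

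The conversion-aware alignment (HISAT-3N, setting D) was used, without reads of no single gene. Exonic counts of 18 libraries in 12 groups were fitted in edgeR 4.0.16 (R 4.3.3, filterByExpr, TMM, 6 residual degrees of freedom), which took all p-values and standard errors of counts. Converted and unconverted reads of 12 labelled libraries were fitted with a term per library, for genes with at least 50 reads in each labelled TimeLapse library. New reads came from a binomial mixture whose background was taken from the unlabelled library. DESeq2 1.42.0, other alignments, read minimums, a replicate block and libraries left out were alternatives. The tests were tested on simulated data.

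Members and gene lists were chosen with earlier results of these data known. Named genes were the largest called rises and falls with groups apart and a mean of at least 200 reads, 2 of each kind, and the 5 largest deposited changes each way. A symbol was required but could not be had for the count table, whose identifiers no table pairs with symbols; 2181 of 2209 deposited names matched a RefSeq symbol (GRCh38.p14). List members were named as examples after their values were seen. The main fits did not pair libraries by replicate number, and whether the numbers pair them was not settled (closing section).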

Additional observations from a re-analysis of the deposited data

Results flagged for a closer look

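Reads given to no single gene, which enter no gene comparison, carried T-to-C mismatches above the unlabelled level. Of these reads 24.9% and 18.9% were converted in drop-out replicates 1 and 2, against 4.04% in the unlabelled drop-out library. Under improved handling 44.0% and 40.5% were converted, against 2.96% without s4U. They were flagged because the signal lies outside the gene tests and above the control. Chromosome 21 and the unplaced contigs held 58.5% to 63.6% of them under drop-out and 21.5% to 23.8% under improved handling.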

How the results depend on the processing

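The count comparison kept its number of differing genes within 1.5 times under its 13 alternatives (5859 to 9770), though without drop-out replicate 2 fewer were higher (2822) than lower (3037), and both interaction tests called 0 genes under every alternative run. The exonic converted count was 340 of 574 genes with at least 200 reads, and 318 to 1159 with a library left out. The intronic count was 665 of 1095 genes with at least 20 reads and 5 of 12 with at least 200, where fewer genes were tested, 195 of 258 with STAR, 36 of 91 with HISAT2, 53 of 171 with mismatches per T position, and 66 to 110 with a library left out; the cause was not tested for the last 4. The turnover gap ran from -0.17 to 0.081 with a library left out, and the reversal came without drop-out replicate 1; ranking by the authors' constants was not run, since symbols and identifiers could not be joined. Each named identifier kept its direction and call in the alternatives that tested it: 13 for each of the count genes, 12 for the converted-share genes and 11 for ENSG00000153707, which had no value with STAR; none of the converted-share genes had one at 200 reads. With the replicate number as a block, 7142 genes differed in counts, and the converted share rose in 1223 and fell in 2 exonic genes. The intronic share then rose in 116 genes. Across genes, deviations of same-numbered libraries correlated at -4.0e-05 for counts and -0.0068 for converted shares. A shift shared by all genes does not enter that correlation, so it cannot decide whether the numbers pair the libraries. Replicate 1 had the higher conversion per T of new reads under both handlings, at 5.07% and 3.98% under drop-out and 6.47% and 5.29% under improved handling.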
